A study of Mus musculus with 8 samples.

Results

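Sprr1a encodes small proline-rich protein 1A, and its RNA was followed here through the sensory ganglia of mice after a crush of the sciatic nerve. The gene was selected by its symbol in a table of read counts per gene, as 1 of 24060 rows, for its difference between naive and injury libraries. That difference is therefore given as a description without a test. The study asks how a nerve crush changes alternative polyadenylation, and it sequenced the polyadenylated 3′ ends of RNA from dissociated dorsal root ganglia of lumbar levels L4 to L6. The labels give 4 naive and 4 injury libraries. One sciatic nerve was crushed in each of 4 mice, ganglia were taken 3 days later, and naive and injured ganglia came from each animal. All libraries are of dissociated tissue, and the labels name no strain, genotype, sex or age. The naive ganglia are those of a mouse with a crushed nerve, not of an uninjured mouse. The design text gives both sides of each mouse, and beyond that and the levels nothing states which ganglia they were.

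Small proline-rich proteins are best known from the skin, where transglutaminases cross-link them into the cornified envelope of keratinocytes. Their genes lie together in the epidermal differentiation complex, a cluster of genes used late in epidermal differentiation. Sprr1a is also a known regeneration-associated gene: it is hardly made in intact sensory neurons and is made after their axons are cut, and its protein has been found with F-actin in growing neurites, where raising it promoted outgrowth.

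On GRCm38 the gene lies on the minus strand at chr3:92483952-92485895 in the GENCODE vM21 annotation. It has 2 exons, of 46 and 760 bases, and its coding sequence of 432 bases sits within exon 2 (chr3:92484261-92484692). Of its 144 codons, 46 (31.9%) are proline codons. Bases 24 apart in the coding sequence were identical at 63.0% of positions; the protein is known for its short tandem repeats. The 3′ UTR, where reads of this assay are expected to end, is the last 309 bases of the transcript. Of the deposited poly(A) and repeat windows, 0 of 11917 on chromosome 3 lay in the gene or within 1000 bases of it, and the nearest lay 31731 bases away, so which poly(A) site its reads used was not analysed here.

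The promoter is shown because it holds the elements through which stress-induced transcription factors of the AP-1 and ATF families are known to act, and that of Sprr1b, the closest paralog, is shown for comparison. Both are the 250 bases before the RefSeq start on GRCm38.p6, minus strand, 5′ to 3′: chr3:92485882-92486131 for Sprr1a and chr3:92438780-92439029 for Sprr1b. The GENCODE starts, at 92485895 for Sprr1a and 92438789 for Sprr1b, fall inside these stretches. Distances below are counted from the RefSeq start. Capitals mark matches on either strand to the AP-1 motif TGANTCA. They also mark the ATF/CRE motif TGACNTCA, read in reverse complement as TGANGTCA. The last motif marked is the TATA box, TATAAA on either strand. None of the capital stretches overlap.

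Sprr1a: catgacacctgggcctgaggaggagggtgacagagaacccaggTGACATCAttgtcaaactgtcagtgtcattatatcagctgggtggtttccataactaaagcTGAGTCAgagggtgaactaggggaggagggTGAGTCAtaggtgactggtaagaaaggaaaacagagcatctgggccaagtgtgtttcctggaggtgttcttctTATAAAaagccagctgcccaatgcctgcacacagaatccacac

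Sprr1b: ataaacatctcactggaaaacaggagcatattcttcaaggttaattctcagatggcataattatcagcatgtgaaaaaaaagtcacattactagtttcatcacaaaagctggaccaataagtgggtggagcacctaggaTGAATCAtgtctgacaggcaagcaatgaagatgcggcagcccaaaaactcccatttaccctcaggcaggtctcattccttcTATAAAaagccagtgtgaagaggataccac

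The Sprr1a promoter holds 2 AP-1 matches, both TGAGTCA, which begin 146 and 116 bases before the start. It also holds the ATF/CRE match TGACATCA, which begins 207 bases before, and a TATA match 43 bases before. At least 2 AP-1 matches were found in 0.338% of 32851 promoters of the same length, at least 1 in 6.75%, an ATF/CRE match in 7.49% and a TATA match in 12.4%. A match to the STAT sequence TTCNNNGAA, found in 7.02% of promoters, is not among these 250 bases. The Sprr1b promoter holds 1 AP-1 match, TGAATCA, and a TATA match. Across the family the AP-1 sequence was found in 9 of 14 promoters with a RefSeq entry, and of these 9 genes 3 had counts after injury and 6 had none. Among the 6, the Sprr2k promoter also holds 2 AP-1 matches and a TATA match. That of Sprr2f holds an AP-1, an ATF/CRE and a TATA match. The 4 motifs were picked with the sequence in view, and a match is no evidence of binding.

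Naive ganglia held next to no Sprr1a RNA. The naive libraries had 9, 45, 20 and 17 counts in replicates 1 to 4. Scaled to library size, these were 0.429, 2.15, 1.09 and 0.742 CPM (counts per 1000000 counts of the genes tested, after TMM scaling). The injury libraries had 12588, 21952, 13435 and 8397 counts, which were 556.6, 777.8, 649.0 and 514.7 CPM. The groups did not overlap, and the lowest injury library lay far above the highest naive one. Every injury CPM lay above every naive CPM in 12.6% of the genes tested, and below in 10.8%. The mean was 1.10 ± 0.748 CPM in naive and 624.5 ± 117 CPM in injury libraries (SD, n = 4 each). The fitted log2 fold change was 9.14 (SE 0.31), about 566-fold. The median log2 fold change of all 13770 genes tested was -0.02, and 10.1% of them were called higher and 7.75% lower in injury. With library sizes and no further scaling factors the balance turned, from 1387 higher and 1067 lower to 1100 and 1581. In whole ganglia, a change in the number of cells that carry an RNA and a change in RNA per cell cannot be told apart.

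**Figure D1:**
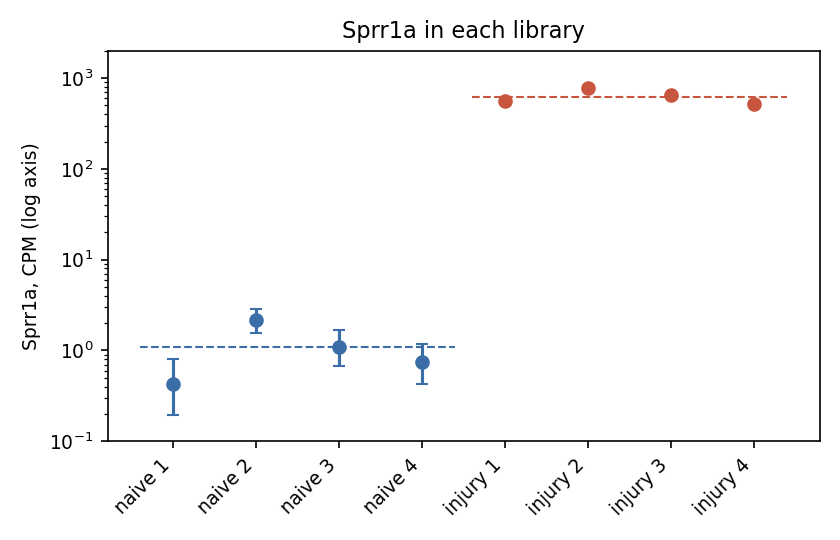
Sprr1a in CPM on a log axis in each of the 8 libraries; points are libraries, bars are exact 95% Poisson intervals of the count (counting error only, smaller than the points after injury), and dashed lines are group means. The naive libraries lie between 0.429 and 2.15 CPM and the injury libraries between 514.7 and 777.8 CPM.

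The spread lay mostly on the naive side. The highest naive library, naive 2, stood 5.01 times above the lowest, naive 1, whereas injury libraries differed by at most 1.51 times. The exact 95% Poisson interval was 4.12 to 17.1 counts around the 9 of naive 1 and 32.8 to 60.2 counts around the 45 of naive 2. These intervals do not overlap. They take each read as an independent draw, and the 2 libraries were picked as the highest and lowest naive ones, so this is a description. The coefficient of variation was 67.8% over naive and 18.7% over injury libraries. The median over 6505 genes with at least 20 CPM in injury was 11.1% over the injury libraries, and 1189 of these genes varied more than Sprr1a.

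Between same-numbered libraries, taken as the 2 sides of a mouse, the naive level was 0.0771%, 0.276%, 0.169% and 0.144% of the injury level in pairs 1 to 4. The log2 ratios were 10.34, 8.50, 9.21 and 9.44. Pair 2 had both the highest naive and the highest injury level, and the smallest ratio. Without naive 2 the fitted log2 fold change was 9.71, the highest value with a library left out, and without naive 1 it was 8.88, the lowest.

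Sprr1a went from rank 12571 to rank 208 of 24060 genes by mean CPM. By its own count it ranked between 11452 and 13568 in the naive libraries, where 15146 to 15703 genes had a count. In the injury libraries it ranked 235, 143, 208 and 270. Reads of this assay come from the 3′ end, so a transcript's length does not enter the level, and CPM of different genes were compared without dividing by length. On that CPM scale its injury level was below those of the neuropeptide gene Gal (864.5 ± 119) and the growth cone gene Gap43 (1271 ± 172). It was above those of the transcription factor genes Sox11 (489 ± 32.5) and Atf3 (329 ± 30.02). These 4 genes were at 38.0, 470.0, 61.1 and 60.4 CPM in naive ganglia, against 1.10 for Sprr1a. It supplied 0.0624% of all counts of the injury libraries.

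By log2 fold change Sprr1a ranked 6 of 13770 genes tested. The genes at ranks 1 to 5 had 0 counts in every naive library, so their fitted values depend on the small count added in the fit. They are Anxa10, an annexin; Fgf3, a fibroblast growth factor; Ankrd1, an ankyrin repeat protein of stressed muscle and heart; Trim15; and Igfn1, with means of 3.56 to 8.74 CPM after injury. Directly below Sprr1a were 1700042G15Rik, Cckbr, which encodes a cholecystokinin receptor, Stfa2, Cd207 and Gpr151, an orphan receptor gene. Of these only Cckbr had naive counts (5, against 2623 in injury libraries). These 10 genes were picked by their fold change, and all passed the filter on low counts through injury libraries alone. This holds for Cckbr too, with at most 4 counts in a naive library, so the values of the 10 are a description. Among the 6505 genes tested with a mean of at least 20 CPM in injury, Sprr1a ranked 1. Its rank over all genes tested was 3 with DESeq2 and 1 with limma-voom or with a prior count of 2.

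**Figure D2:**
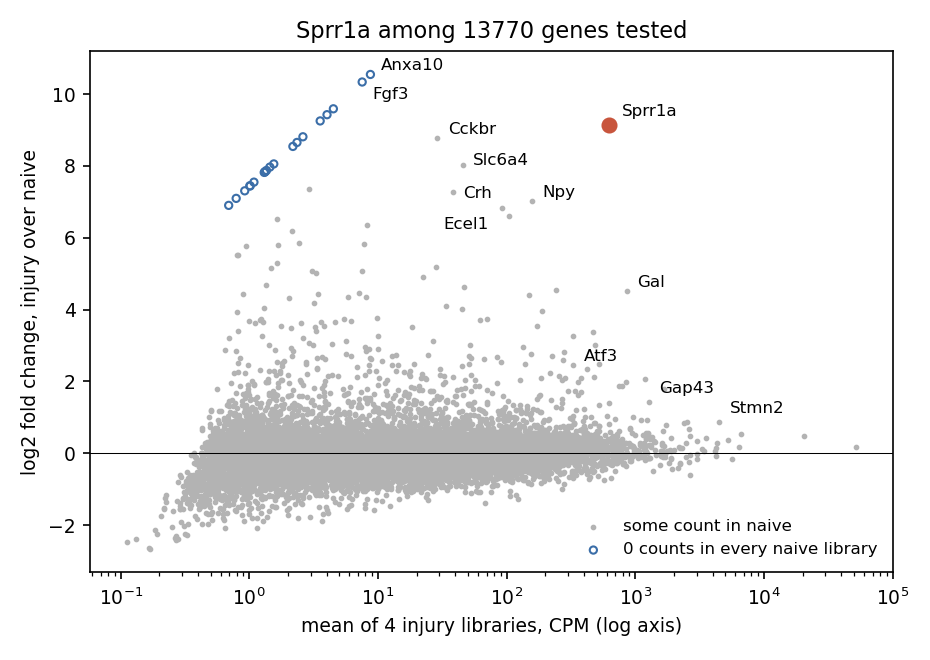
Each point is 1 of 13770 genes tested, with its mean over the 4 injury libraries in CPM (log axis) against its log2 fold change of injury over naive; open circles have 0 counts in every naive library, where the fitted value depends on the count added in the fit. Sprr1a, at 624.5 CPM and 9.14, stands apart from genes of like level, while the genes above it lie under 10 CPM.

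By the gain in CPM (mean of injury minus mean of naive libraries) Sprr1a ranked 20, with 623 CPM. The 6 largest gains were those of Rn45s, the ribosomal RNA precursor (6093 CPM), the tubulin genes Tuba1a (5885) and Tubb3 (2079), the stathmin gene Stmn2 (2045), the ubiquitin hydrolase gene Uchl1 (1190) and Srxn1, which encodes sulfiredoxin (1188). Of these, Rn45s and Uchl1 were not called (adjusted p by edgeR = 0.416 and 0.0546). In each of the 6 the naive level was already at least 488 CPM, against 1.10 for Sprr1a.

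The other small proline-rich genes had few counts or none. Of 14 family members in the gene table, 10 had 0 counts in all 8 libraries: Sprr2a1, Sprr2a2, Sprr2b, Sprr2d, Sprr2e, Sprr2f, Sprr2h, Sprr2k, Sprr3 and Sprr4. The remaining members beside Sprr1a had 0 counts in every naive library and some in every injury library. Sprr1b had 39, 49, 15 and 17 counts in injury 1 to 4, at least 35.9-fold higher than a floor of 3 counts over the 4 naive libraries together. Sprr2i had 19, 17, 34 and 16 counts (at least 25.7-fold higher). Sprr2g, annotated as a polymorphic pseudogene, had 8, 4, 3 and 3 counts, too few to be tested. Sprr2j-ps, which stands outside the family list drawn up for this report and is described with the neighbours, had 36, 61, 23 and 15. Across all 24060 rows, 93 genes (0.387%) had 0 counts in every naive and at least 1 in every injury library, and 4 (0.0166%) the reverse.

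Sprr1b and Sprr2i were called higher by edgeR's quasi-likelihood test (adjusted p = 0.000674 and 0.00128). They passed the filter on low counts only through their injury libraries, so that both passed supports nothing further. The Sprr1b count was 0.310%, 0.223%, 0.112% and 0.202% of the Sprr1a count in injury 1 to 4, and the Sprr2i count 0.151%, 0.0774%, 0.253% and 0.191%. Sprr1b was highest in relation to Sprr1a in injury 1 and lowest in injury 3, where Sprr2i was highest. The coding sequence of Sprr1b is 78.4% identical to that of Sprr1a. Their last 100 transcript bases are 51.9% identical, and the longest run that the last 200 bases of Sprr1a share with the Sprr1b transcript is 12 bases (20 over the whole transcripts). For Sprr2i this run is 9 bases. The sources do not state the handling of reads that map to several genes, so the counts of these paralogs are uncertain.

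Counts after injury also appeared at other genes of the epidermal differentiation complex. GENCODE places 90 genes within 1000000 bases of Sprr1a, counted from start to start, and 51 of them were found in the table by symbol. Of the 51 neighbours, 30 had 0 counts in all libraries, 6 had any count in naive and 21 any count in injury libraries. In 7 of 51 the naive libraries were all at 0 and the injury libraries all above 0, against 0.387% of all genes, and in 0 of 51 the reverse. Summed, the neighbours held 127 counts in the naive and 1302 in the injury libraries, against 91 and 56372 for Sprr1a itself.

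The neighbours that were called higher are Prr9, Sprr2i, Sprr2j-ps, Sprr1b, Lce1g and Tchh, and none was called lower. Prr9, which encodes a proline-rich protein of the complex, had 0 naive counts and 18, 52, 34 and 19 counts in injury 1 to 4 (adjusted p = 0.000545). Sprr2j-ps was also at 0 in naive libraries (adjusted p = 0.000487). Lce1g, a late cornified envelope gene, had 0, 0, 7 and 0 counts in naive and 44, 143, 76 and 28 in injury libraries (log2 fold change 5.08, SE 0.88, adjusted p = 0.00175 by edgeR's quasi-likelihood test). Tchh, which encodes the hair follicle protein trichohyalin, had 7, 4, 2 and 7 counts in naive and 20, 44, 26 and 19 in injury libraries (log2 fold change 2.33, SE 0.50, adjusted p = 0.00700). In these genes every injury library lay above every naive one, as in 12.6% of all genes tested, with 10.8% the reverse. Lce6a, with 37, 4, 8 and 3 naive and 38, 64, 36 and 49 injury counts, was tested and not called (log2 fold change 1.77, adjusted p = 0.0851). Lce1e and Lce1f, with 56 and 66 injury counts and 0 naive counts, were not tested. Only 7 neighbours were tested. Those at 0 in naive libraries, and also Lce1g and Tchh with at most 7 counts in a naive library, passed the filter on low counts through injury libraries alone. They had to differ, so neither their calls nor the number called supports anything about the region.

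**Figure D3:**
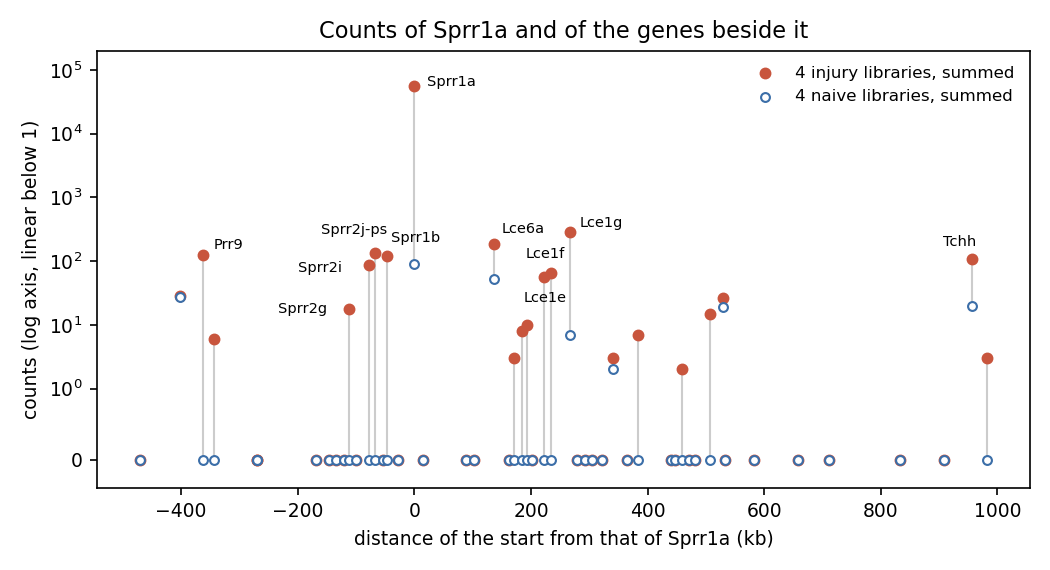
Counts summed over the 4 injury libraries (filled) and the 4 naive libraries (open) for Sprr1a and the 51 neighbours found in the table, against the distance of their start from that of Sprr1a in kb; the count axis is logarithmic above 1 and linear below. Sprr1a reaches 56372 counts in injury libraries, and the highest neighbour, Lce1g, 291.

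Genes that mark keratinocytes, the cells in which the family is best known, were mixed in level. Of 18 such markers 4 had no count in any library and 6 were tested. Among these, Krt10, a keratin of differentiating keratinocytes, had 193 to 312 counts in naive and 215 to 274 in injury libraries, and Sbsn, which encodes suprabasin, 182 to 277 and 186 to 375; neither was called. The basal keratin gene Krt5 and the envelope gene Ivl (involucrin) were at 0 throughout. Krt14 had 1 to 9 counts in naive and 0 to 6 in injury libraries, and Lor, which encodes loricrin, 3 to 11 and 4 to 13. The summed level of the list was 42.6 to 52.6 CPM in naive and 59.9 to 74.1 CPM in injury libraries, and 1 member, Sfn (the 14-3-3 protein sigma), rose (log2 fold change 0.95, adjusted p = 0.000777). The wound keratin genes Krt6a and Krt16, chosen after their values were seen, had 0 counts in every naive library. In injury libraries 1 to 4 Krt6a had 17, 31, 24 and 6 counts and Krt16 had 4, 6, 4 and 3. Of the 35 other envelope genes, 34 were in the table, 13 had no count, 7 were tested, and 2 were called higher and 0 lower, against 10.1% and 7.75% of all genes. The 2 are Lce1g and Tchh, the neighbours that passed the filter through injury libraries alone.

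Of the transglutaminases, which cross-link these proteins in skin, 3 of 8 were tested. edgeR called 0 of the 3, DESeq2 and limma-voom also 0, and 0 had an unadjusted p below 0.05. Tgm2, the most abundant of them, had 651, 575, 560 and 677 counts in naive and 659, 706, 879 and 524 in injury libraries (log2 fold change 0.12, SE 0.15). Its groups overlapped. Tgm1, the main enzyme of the keratinocyte envelope, had 4 counts in naive 2, 1 in injury 2 and 0 elsewhere.

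Most genes listed for the nerve injury response were called higher. Without Sprr1a itself, 38 of 44 tested members were called higher and 0 lower, against 10.1% and 7.75% of all genes, with a median log2 fold change of 2.14. The list was written with results of these data known. Ankrd1, Ucn, Cckbr, Slc6a4 and Crh had at most 10 counts in a naive library and passed the filter on low counts through injury libraries alone. They had to be higher. Ecel1, with 0 counts in naive 1, would not have passed on its naive libraries alone either. The calls of all these genes and their part in the 38 support nothing further. The smallest p belonged to Gal, Flrt3 (an adhesion receptor; log2 fold change 3.27, SE 0.09), Sox11 (3.00, SE 0.09), the neuropeptide gene Nts (4.55), Npy (7.03), the semaphorin gene Sema6a (3.53), Sez6l (3.73), Vgf (1.99), Atf3 (2.45), the tubulin gene Tubb6 (4.09), Cckbr (8.78) and Gfra1, a receptor for GDNF (1.98). Adjusted p by edgeR's quasi-likelihood test was 2.01e-08 or lower for each of these 12 genes. Members not called were Arg1, Cd44, Anxa1, Il6, Plaur and Socs3. Vip, Csrp3 and Reg3b were not tested; they had 0 naive counts, and 14, 9 and 50 counts over the injury libraries.

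The 6 genes of most similar pattern over the 8 libraries were Npy, Ecel1, Tmem88b, Slc6a4, Crh and Cckbr. Likeness was the root mean square difference of log2(CPM + 0.5) values after each gene's mean was subtracted, over 10018 genes with at least 5 CPM in injury. It ran from 1.21 for Npy to 1.55 for Cckbr, against a median of 4.37. Ecel1, which encodes an endopeptidase of injured neurons, had 0, 1.34, 1.09 and 0.786 CPM in naive 1 to 4 and 90.7, 102.5, 99.8 and 73.2 CPM in injury 1 to 4. Like Sprr1a, it was lowest in naive 1 and highest in naive 2, and highest in injury 2 and lowest in injury 4. Npy, which encodes neuropeptide Y, had 1.67, 1.10, 0.875 and 1.14 CPM in naive and 107.7, 174.7, 196.1 and 152.0 CPM in injury libraries. Its order over the libraries was another one, with the highest naive value in naive 1 and the lowest injury value in injury 1. Tmem88b went from 1.06 ± 0.603 to 104.2 ± 10.96 CPM. Slc6a4, the serotonin transporter gene, Crh, which encodes corticotropin-releasing hormone, and Cckbr lay below 0.5 CPM in every naive library and reached means of 45.5, 38.4 and 29.0 CPM in injury. The 6 were picked by their likeness over all 8 libraries to a gene that is low in naive and high in injury libraries. That difference and any shared order of the libraries are therefore a description. None of the 6 reached the injury level of Sprr1a. With a pseudocount of 2, 4 of the 6 genes were the same.

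**Figure D4:**
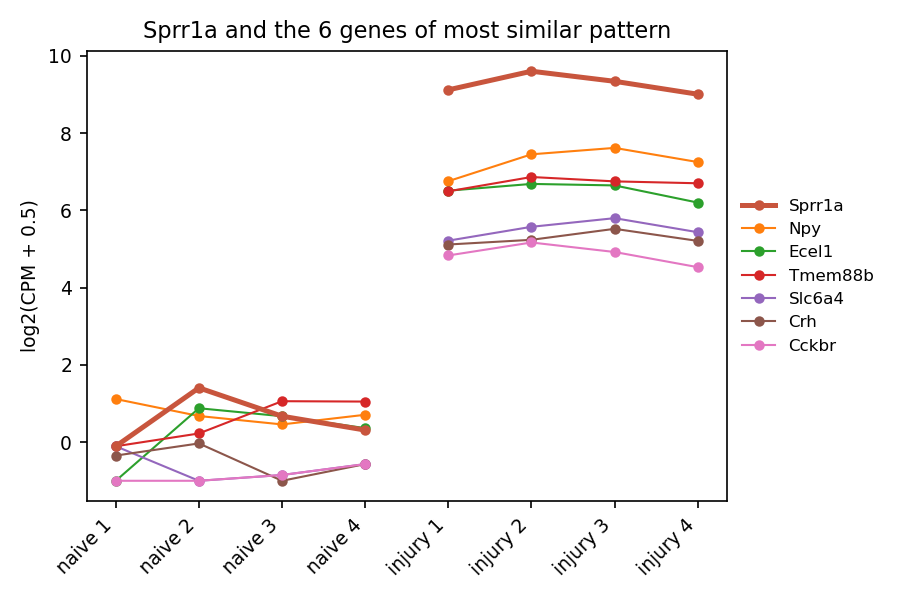
log2(CPM + 0.5) of Sprr1a (thick) and of the 6 genes of most similar pattern in each library; lines join the libraries of a group for legibility and carry no order. All 7 genes lie at or under 2.15 CPM in the naive libraries, and Sprr1a lies above the other 6 in every injury library.

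Factors known to act on the Sprr1a gene in other cells were examined too. AP-1 factors drive it in keratinocytes, and cytokines that signal through the receptor subunit gp130 induce it in heart muscle cells. Of 15 AP-1 and related factors tested, 5 were called higher, where 10.1% of all genes were: Atf3, Jun (log2 fold change 0.54, SE 0.07), Fosl2 (0.54, SE 0.08), Fosl1 (2.62, SE 0.44) and Atf4. Fosl1 had 6 counts in naive 4, so its naive libraries alone would not have passed the filter on low counts. Its call and its part in the 5 therefore support nothing further. Fosb was called lower (-0.54, SE 0.13), as were 7.75% of all genes. The median log2 fold change of the 15 factors was 0.26. Of 16 genes of the gp130 pathway tested, 4 were called higher and 1 lower, against the same shares of all genes. Those called higher include the kinase genes Jak1 (0.54, SE 0.10) and Jak2 (0.44, SE 0.12), and Stat3 (0.38, SE 0.07), the main transcription factor of the pathway. The gp130 gene itself, Il6st, was not called (0.10, SE 0.12, edgeR adjusted p = 0.619), and Lif had 0 counts in all libraries. Leaving out naive 1, 3 or 4, injury 2 or 3, or the scaling factors ended the call of Jak2, with an edgeR adjusted p of at most 0.0774.

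Of 28 tested genes of the actin cytoskeleton, with which SPRR1A protein has been found, 12 were called higher and 0 lower, against 10.1% and 7.75% of all genes, with a median log2 fold change of 0.27. The smallest p belonged to Fscn1 (fascin, an actin-bundling protein; 1.77, SE 0.14), Flnc (filamin C; 2.91, SE 0.25), Marcks (1.02, SE 0.09) and Arpc2 (0.62, SE 0.09), a subunit of the Arp2/3 complex. Without single libraries 8 to 13 were called. Among 10 tested S100 genes, calcium-binding proteins of which some lie beside the complex, 3 were called higher and 0 lower. Of all genes 10.1% were called higher and 7.75% lower. S100a11 stood at 43.7 ± 4.02 CPM in naive and 185 ± 45.5 CPM in injury libraries, a log2 fold change of 2.09. S100a10 stood at 640.7 ± 25.7 and 1227 ± 104 CPM, a log2 fold change of 0.94. The third, S100a13 (0.33, edgeR adjusted p = 0.0251), was no longer called with no scaling factors, nor without naive 3, naive 4 or injury 2. Its edgeR adjusted p there was at most 0.0851. Of those not called, S100a8, S100a9, S100a6 and S100a16 pointed down and S100a1, S100a3 and S100a4 up. S100a8 and S100a9 had log2 fold changes of -1.271 and -1.185 (edgeR adjusted p = 0.06445 and 0.06794).

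The defining neuron, satellite glia and Schwann cell markers had counts in every library. The counts of markers called stand against 10.1% of all genes called higher and 7.75% lower. Neuron markers summed to 25420 to 26540 CPM in naive and 25560 to 30820 CPM in injury libraries; 2 of 15 rose and 3 fell, among them Scn10a and Snap25. The number of neuron markers called lower was 6 with no scaling factors and 5 with limma-voom or the replicate block. Satellite glia markers summed to 4235 to 4858 and 4413 to 5291 CPM (1 of 10 rose, 1 fell), Schwann cell and myelin markers to 1140 to 1239 and 1148 to 1346 CPM (1 of 10 rose), fibroblast markers to 214.8 to 405.0 and 283.2 to 419.2 CPM (1 of 9 tested rose), and endothelial markers to 214.0 to 262.9 and 211.8 to 253.5 CPM (0 of 8). Of the macrophage markers 7 of 11 rose, and the sum went from between 13.1 and 31.5 CPM to between 42.2 and 63.3 CPM. Cd163, Cd68, Lyz2 and Ptprc were not called, and Lyz2 and Ptprc pointed down (log2 fold change -0.80 and -0.89). Csf1r, one of the 7, was not called without naive 1, 2 or 3 or injury 2 or 3. With 8 counts in naive 1, its naive libraries alone would not have passed the filter on low counts. Its part in the 7 therefore supports nothing further. Neutrophil markers were at 381.7 to 1326 and 136.9 to 481.4 CPM (2 of 8 fell, but 6 with no filter on low counts, 7 with the replicate block, 1 with limma-voom and 0 to 6 without single libraries), and skeletal muscle markers at 2.24 to 5.58 and 2.83 to 4.85 CPM (0 of 2 tested), with Myh4 at 0 in every injury library. The part of these cells in the Sprr1a level was not tested.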

How the data were processed

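RNA of dissociated ganglia was prepared as QuantSeq 3′ mRNA-seq REV libraries, per the labels' protocols. The submitters' processing notes name GRCm38/mm10 as the build and list bcl2fastq 2.17, STAR and HTSeq, the latter without versions. The authors deposited raw read counts for 24060 gene rows, 27 of which carry a date as a name and stayed in (0.133% to 0.164% of counts), and raw counts of genomic windows. Library totals ran from 16539644 to 28950551 counts. Genes were tested with edgeR 4.0.16 in R 4.3.3 (TMM factors, filterByExpr, quasi-likelihood test on group, Benjamini-Hochberg adjustment over all 13770 genes tested, threshold 0.05); library sizes and CPM are over the genes tested. The scripts were tested on simulated data. DESeq2 1.42.0, limma 3.58.1, other scalings, filters and prior counts, a block and leaving out each library were alternatives. Same-numbered libraries were taken as pairs, since the design text gives both sides of each mouse, though it does not tie the numbers to mice. Deviations from group means correlated at 0.13, 0.22, 0.05 and 0.17 between same-numbered libraries. Between naive and injury libraries of unlike number they correlated at -0.26 to 0.11. P-values set the group difference against the spread between these libraries. The main test takes the 8 libraries as independent, although they came from 4 mice. Intervals and floors of 3 counts cover counting error only. Gene symbols were matched to GENCODE vM21, and 282 of 285 list entries are in the table. The members and all 17 lists were chosen with earlier results of these data known. Genes named are Sprr1a, its family, up to 4 called members per list (12 for regeneration), the 5 genes on either side by log2 fold change, the 6 largest gains, the 6 most similar and the called neighbours; others were named after their values were seen. A few genes that the rule selects are not reported here.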

Additional observations from a re-analysis of the deposited data

Results flagged for a closer look

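In 5 of 153 groups of 4 libraries examined (3.27%), 1 library lay far from the other 3, where chance flags about 1 group in 20. Lce1g had 0.383 CPM in naive 3 and 0 in the other naive libraries. Cd207 had 3.00 CPM in injury 4, against 1.84 to 2.03 in the others, and the fascin gene Fscn1 had 14.9 CPM in naive 1, against 10.8 to 11.4. Gfra1 had 83.0 CPM in naive 2, against 92.5 to 94.4, and the endothelial marker Cldn5 had 13.96 CPM in injury 3, against 5.89 to 6.91. No group of Sprr1a values was among them.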

How the results depend on the processing

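Sprr1a kept its direction under every alternative run, with a log2 fold change of 8.88 to 9.71 with single libraries left out. Its rank by log2 fold change was 3 with DESeq2 and 1 with limma-voom or a prior count of 2, against 6, and 3 to 8 without single libraries; its rank by gain, 20, was 17 to 20 without single libraries and 16 with no scaling factors. With no scaling factors 1100 genes were called higher and 1581 lower, against 1387 and 1067. Without single libraries 1049 to 1356 genes were called higher and 689 to 1082 lower, the 689 without naive 3. Envelope genes called higher were 2, but 6 with DESeq2, 4 without a filter and 2 to 5 without single libraries, and S100 genes called lower were 0, but 2 without a filter and 0 to 2 without single libraries. AP-1 factors called lower were 1 to 2, gp130 genes called lower 0 to 1, and the most similar genes kept 6 of 6, without single libraries. With same-numbered libraries as a replicate block, the Sprr1a log2 fold change was 9.19 and 1 envelope gene, 2 S100 genes and 2 AP-1 factors were called lower, and apart from the neuron and neutrophil markers given above, no other count of calls moved by over 1.5 times. Of 1309 values of 77 named genes under alternatives, 1272 kept direction and call, 15 lost and 22 gained a call, and 0 reversed. Scaling moved the median of all genes from -0.020 to -0.097 (log2) with no factors. Depth limits the family members other than Sprr1a, which had at most 49 counts in a library.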
